A study of Mus musculus with 6 samples.

Results

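The genes of NADPH oxidases, superoxide removal and the NRF2 response were examined in primary mouse lung fibroblasts (LFs) exposed to TGFβ. The 10 genes were chosen by symbol and were Nox4, Cyba, Cybb, Sod1, Sod2, Sod3, Nfe2l2, Hmox1, Nqo1 and Nnt. They took 11 of the 55364 gene rows in the count tables, since Nnt is listed under 2 Ensembl identifiers, and all 11 rows had enough counts to be tested. The comparison asks how LFs that carry a targeted allele of Sh3pxd2a, the gene of the podosome scaffold Tks5, differ from wild type (wt) LFs when both are exposed to TGFβ. Quant-Seq libraries, whose reads come from the polyadenylated end of each transcript, were made from 3 wt samples and 3 samples labelled TKS5 KO. Every sample received 10 ng/ml TGF-β1 for 24 h in medium without serum, so no untreated cells were compared here. The paper names the mutant genotype of these LFs Tks5+/-, that is, heterozygous, and "the libraries labelled KO" is used below. By the study's methods, LFs were taken from young adult C57Bl6/J mice, wt and mutant littermates, and used at an early passage. The mutant alleles (tm1b and tm1d) lack a floxed exon in all tissues, removed by a Cre under the CMV promoter, and derive from embryonic stem cells injected into C57Bl/6N blastocysts. The paper calls its samples biologically independent, but neither it nor the labels tie each library to a mouse, and the p-values measure the spread between these samples.

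NADPH oxidases are membrane enzymes that pass electrons from NADPH to oxygen and so make superoxide or hydrogen peroxide. Nox4 is the catalytic subunit best known in fibroblasts, where TGFβ induces it during myofibroblast differentiation, and Cybb (gp91phox, Nox2) is that of phagocytes. Both need the small membrane subunit p22phox, the product of Cyba. Superoxide dismutases turn superoxide into hydrogen peroxide, which catalase and peroxiredoxins remove. NRF2, the product of Nfe2l2, is held low by Keap1 and, once released, drives genes such as Nqo1 and Hmox1 through the antioxidant response element (ARE). Nnt, the mitochondrial nicotinamide nucleotide transhydrogenase, makes NADPH in the mitochondrial matrix.

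The raw counts of the 6 libraries summed to between 1344507 and 2369882. Levels are given as counts per 1000000 reads (CPM) after TMM scaling, and a gene was called where edgeR's quasi-likelihood test gave a Benjamini-Hochberg adjusted p under 0.05, over the 10346 genes tested, with a fold change of at least 1.2. The reads of Sh3pxd2a itself come from the transcript end and not from the deleted exon. Whether the mutant alleles, of which tm1b carries a LacZ reporter, still give this end was not tested. The level of Sh3pxd2a was 113 ± 16.5 CPM (SD, n = 3) in the wt libraries and 138 ± 11.1 (SD, n = 3) in the libraries labelled KO. It was not called (log2 fold change 0.29, adjusted p = 0.249). No fall was seen, whereas the paper reports lower Tks5 mRNA in Tks5+/- LFs by Q-RT-PCR. These reads do not settle the genotype behind the labels. Fibroblast markers were detected in every library, with a summed level of 5243 to 9297 CPM per library. All 12 were tested, with 5 called higher and 2 lower in the libraries labelled KO. These were 41.7% and 16.7%, beside 22.8% and 22.1% of all genes tested. With wt replicate 3 left out, 3 of the 12 were called higher and 3 lower. The library of wt replicate 3 stood apart by its macrophage and leukocyte markers, which summed to 2525 CPM there, to 458 and 397 CPM in wt replicates 1 and 2, and to 143 to 164 CPM in the libraries labelled KO. Results whose call it decides are given with and without it.

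In the libraries labelled KO, 5 of the 10 genes were called lower (Nox4, Cyba, Cybb, Sod3 and Nnt), 2 were called higher (Sod2 and Nqo1) and 3 were not called (Sod1, Nfe2l2 and Hmox1). Among all genes tested, 44.9% were called, 22.1% lower and 22.8% higher. Cybb entered the test only through its wt counts, which favours a lower call. The CPM of the genotypes did not overlap for 9 of the 10 genes, against 53.8% of all genes tested. For each of these 9, the exact two-sided permutation test of the CPM gave p = 0.1, the smallest that 3 libraries against 3 allow. The median log2 fold change of the 10 genes was -0.86, beside -0.0457 over all genes tested, and without wt replicate 3 it was -0.56, beside -0.0248, with 4 genes called lower (Nox4, Cybb, Sod3 and Nnt) and 2 higher (Nqo1 and Nfe2l2). Leaving out KO replicate 2 removed the calls of Cyba, Cybb and Sod2, so that 5 of the 11 rows were called in place of 8. When library totals alone set the scale, the median of all genes was -0.465 and 1362 genes were called higher and 3944 lower, in place of 2356 and 2286. Because these are bulk samples, fewer cells of a type and less RNA per cell cannot be told apart.

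**Figure D1:**
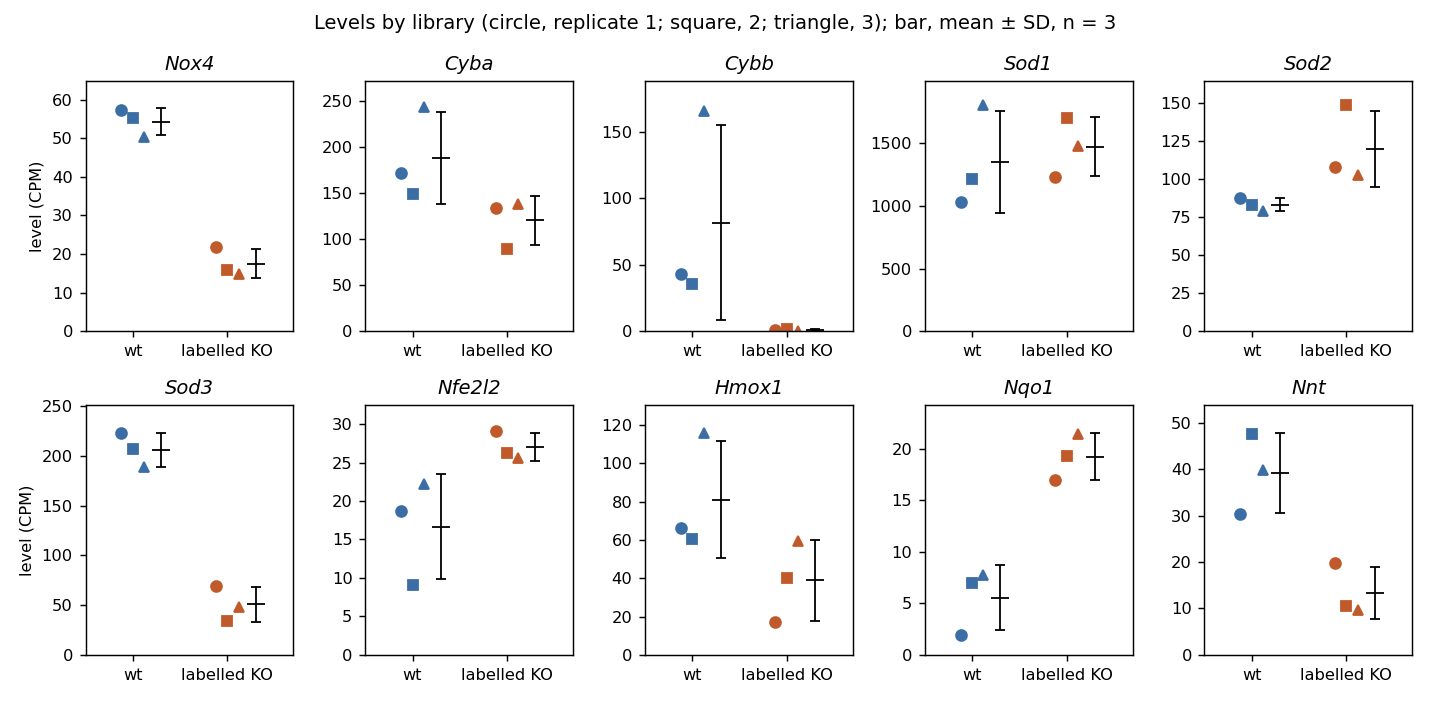
Level in CPM of each of the 10 genes in every library, wt in blue and labelled KO in orange, with the replicate given by the symbol and the mean ± SD (n = 3) beside the points. Nox4, Sod3 and Nnt lay below every wt library in all 3 libraries labelled KO and Nqo1 above, and the triangle of wt replicate 3 stood far above the other wt points for Cybb (166 CPM against 43.1 and 35.3).

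Nox4 (ENSMUSG00000030562), on the forward strand of chromosome 7 (GRCm38, 87246096 to 87398710), was read with 89, 103 and 136 counts in wt replicates 1, 2 and 3, against 40, 27 and 29 in those labelled KO. All 3 libraries labelled KO lay below every wt library. The level was 54.3 ± 3.50 CPM (SD, n = 3) in the wt libraries and 17.5 ± 3.86 (SD, n = 3) in the libraries labelled KO, a 3.10-fold lower mean and a log2 fold change of -1.62 (SE, standard error, 0.25; adjusted p = 1.96e-05). This oxidase is known to release hydrogen peroxide without the cytosolic activators that Cybb needs. Over the 6 fits without 1 library each, its log2 fold change ran from -1.77 to -1.48, and Nox4 was called lower under all 19 alternatives that tested it.

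Cyba (ENSMUSG00000006519), which encodes the subunit shared by Nox4 and Cybb, lies on chromosome 8 from 122424776 to 122432930 on the reverse strand. There were 268, 279 and 657 counts in the wt libraries, against 244, 153 and 269 in those labelled KO. The level fell from 188 ± 49.1 CPM (SD, n = 3) to 120 ± 26.8 (SD, n = 3), and its log2 fold change was -0.65 (SE 0.23, adjusted p = 0.0241). The highest value was that of wt replicate 3 (244 CPM), while wt replicate 2 (149 CPM) was close to KO replicate 3 (138 CPM). Cyba lost its call without wt replicate 3 (-0.42, adjusted p = 0.164) and without KO replicate 2 (-0.45, adjusted p = 0.154), as it did with a correction for GC content (-0.35, adjusted p = 0.209), and its log2 fold change was -1.23 with a correction for transcript length. Cyba lies within Gm20388 on the opposite strand, which was listed with 193 to 447 counts, and whether the counting used strand is not given in the sources used here.

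Cybb (ENSMUSG00000015340), on chromosome X from 9435252 to 9487771 on the reverse strand, had 67, 66 and 449 counts in wt replicates 1, 2 and 3, against only 1, 3 and 1 in those labelled KO. Its level was 81.6 ± 73.6 CPM (SD, n = 3) in the wt libraries and 0.939 ± 0.708 (SD, n = 3) in the libraries labelled KO. Set against 3 counts in each library labelled KO, the highest count seen there, the wt mean of Cybb was 49.6-fold higher. Without wt replicate 3 it was 23.8-fold higher. An observed count of 3 can come from a higher level, so these folds are no strict bound. The spread among wt libraries was almost as large as their mean, but the lowest wt library (35.3 CPM) was far above the highest of those labelled KO (1.76 CPM). The adjusted p was 0.00969, and Cybb was not called without KO replicate 2 (adjusted p = 0.0552) or KO replicate 3 (adjusted p = 0.0586). Without wt replicate 3 the adjusted p was 1.32e-09. Cybb passed the filter on low counts only through its wt counts, a selection that favours a lower call. In a fit with no filter its log2 fold change was -6.43 (adjusted p = 0.00602).

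Cybb is known above all from phagocytes, and markers of macrophages and other leukocytes were therefore set beside it. Of the 20 markers listed, 19 had their highest CPM in wt replicate 3, where their sum was 5.91 times the mean of wt replicates 1 and 2. Cybb in the same library was 4.24 times its own mean in wt replicates 1 and 2, and 2.74% of all tested genes had a ratio above 2. In the libraries labelled KO, 6 of the 20 markers were at 0 in every library. Among them were Spi1, the master transcription factor of the myeloid lineage, and Ptprc (CD45), which every leukocyte carries. Both were shallow in the wt libraries, at 4, 8 and 69 counts for Spi1 and 4, 1 and 15 for Ptprc, and neither was tested. Of the 11 markers tested, 6 were called lower in the libraries labelled KO (54.5%, beside 22.1% of all genes) and none higher. The median log2 fold change was -2.66. Without wt replicate 3, 10 of the 11 were called lower (median -1.58). Markers near 0 in the libraries labelled KO, such as Adgre1, Itgax and Cd68, entered the test only through their wt counts. That selection favours lower calls, so these shares add no support.

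Among single markers, Adgre1 (F4/80) had 7, 10 and 34 counts in the wt libraries and 0 in each library labelled KO, and the integrin Itgax (CD11c) had 25, 22 and 96 counts against 0, 0 and 1. Set against 3 counts in each library labelled KO, the wt mean of Itgax was 12.9-fold higher, and 8.47-fold without wt replicate 3. The lysosomal proteins Cd68 (25, 32 and 232 counts against 1, 1 and 4) and Laptm5 (108, 66 and 663 against 11, 6 and 5) were called lower, with log2 fold changes of -5.16 (adjusted p = 0.0184) and -4.86 (adjusted p = 0.0266). Csf1r, the receptor of the macrophage growth factor, was called lower by -1.39 (adjusted p = 0.00179) and Cd52 by -2.66 (adjusted p = 0.0308). Without any 1 of the libraries labelled KO, the adjusted p ran from 0.0715 to 0.109 for Cd68, from 0.0783 to 0.104 for Laptm5 and from 0.0877 to 0.142 for Cd52, so that none of them was called. Lyz2, the lysozyme of macrophages, had 298, 337 and 3502 counts in the wt libraries, against 139, 157 and 207 in those labelled KO, and was not called (-2.61, adjusted p = 0.110). Tyrobp (-2.32), Ctss (-3.52), Fcer1g (-2.23) and Cd14 (-0.47) were not called either, and without wt replicate 3 Lyz2, Tyrobp, Ctss and Fcer1g were called lower while Cd14 was not. What share of the Cybb reads came from such cells was not tested.

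**Figure D2:**
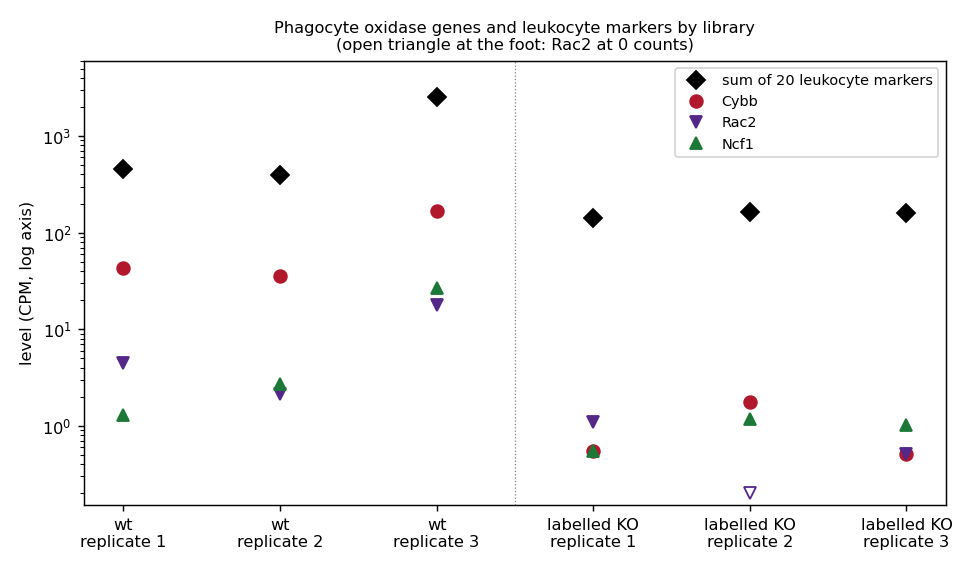
Level in CPM, on a log axis, of Cybb, of its partners Rac2 and Ncf1 and of the sum of 20 macrophage and leukocyte markers in each of the 6 libraries. All of them were highest in wt replicate 3, and Cybb was at 0.512 to 1.76 CPM in the libraries labelled KO.

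Cytosolic subunits that activate Cybb in phagocytes were also read. Ncf1 (p47phox) had 2, 5 and 72 counts in wt replicates 1, 2 and 3, against 1, 2 and 2 in those labelled KO, and Ncf4 (p40phox) had 0, 1 and 12 against 0 in each. Rac2, the small GTPase of blood cells, had 7, 4 and 48 counts against 2, 0 and 1. Most reads of these 3 genes were in wt replicate 3, and all 3 fell below the filter on low counts. In a fit with no filter they were called lower (adjusted p = 3.64e-06 for Ncf1, 0.0205 for Ncf4 and 2.17e-06 for Rac2). Rac2 passed the filter in 4 of the 6 fits without 1 library each, and only through its wt counts. It was called lower in all 4 (adjusted p = 1.12e-04 to 0.0264), which that selection favours, so these calls add no support. It did not pass without wt replicate 1 or 3.

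Of the 14 other oxidase subunits and regulators reported here, which are not the whole list, 5 were tested, with 2 called lower and 1 higher. Without wt replicate 3 only Poldip2 was called of these. With all libraries in, 22.1% of all genes tested were called lower and 22.8% higher. Whether the 5 genes depart from those shares was not tested. Poldip2, a protein known to bind p22phox and raise Nox4 activity, fell from 261 ± 19.3 CPM (SD, n = 3) to 152 ± 49.0 (SD, n = 3), and its log2 fold change was -0.78 (adjusted p = 0.00809). It was not called without KO replicate 2 (-0.51, adjusted p = 0.0714). Nox1, a catalytic subunit of epithelium and smooth muscle, was lower by the test (-0.77, adjusted p = 0.0382), but not without wt replicate 3 (-0.51, adjusted p = 0.236), without wt replicate 1 (-0.80, adjusted p = 0.0598), without KO replicate 1 (-0.49, adjusted p = 0.200) or without KO replicate 3 (-0.85, adjusted p = 0.0597). Cybc1, a chaperone needed to assemble the Cybb and Cyba heterodimer, was called higher (0.63, adjusted p = 0.0372) with overlapping libraries. Without wt replicate 2, wt replicate 3, KO replicate 2 or KO replicate 3, Cybc1 was not called (adjusted p = 0.0904, 0.196, 0.132 and 0.0728). Rac1, the GTPase used by several oxidases, was at 416 ± 45.9 CPM (SD, n = 3) in the wt libraries and 464 ± 35.9 (SD, n = 3) in the libraries labelled KO and was not called (0.16, adjusted p = 0.535), and its direction turned with library totals alone (-0.26).

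The 3 superoxide dismutases differ by compartment. In the libraries labelled KO the secreted Sod3 fell, the mitochondrial Sod2 was narrowly called higher and the cytosolic Sod1 was not called. Sod3 (ENSMUSG00000072941), the secreted enzyme that binds to the extracellular matrix, lies on chromosome 5 from 52363791 to 52371418 on the forward strand. It had 347, 387 and 511 counts in the wt libraries, against 127, 59 and 95 in those labelled KO. These were 223, 207 and 189 CPM against 69.7, 34.5 and 48.6 CPM, so that every library labelled KO was far below the wt libraries. Its mean was 207 ± 16.9 CPM (SD, n = 3) in the wt libraries and 50.9 ± 17.7 (SD, n = 3) in the libraries labelled KO, which is 4.06-fold lower, with a log2 fold change of -2.02 (SE 0.24, adjusted p = 7.67e-07). Sod3 was called lower under all 19 alternatives, from -2.25 to -1.78 with each library left out in turn.

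Sod2 (ENSMUSG00000006818), the manganese enzyme of the mitochondrial matrix, on chromosome 17 from 13006846 to 13040063 on the forward strand, had 136, 155 and 213 counts in the wt libraries, against 196, 254 and 201 in those labelled KO. Its levels were 87.5, 82.9 and 79.0 CPM against 108, 149 and 103 CPM, without overlap, and the libraries labelled KO were spread more widely. The log2 fold change of 0.53 (SE 0.21, 95% interval 0.09 to 0.96) passed the threshold narrowly (adjusted p = 0.0461). Sod2 was called higher under only 5 of 19 alternatives. The call was lost without KO replicate 2 (0.37, adjusted p = 0.194) and without wt replicate 1, 2 or 3 (adjusted p = 0.0719, 0.129 and 0.115), and with library totals alone the log2 fold change was 0.10.

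Sod1 (ENSMUSG00000022982), the copper and zinc enzyme of the cytosol, on chromosome 16 from 90220754 to 90226329 on the forward strand, had 1600, 2272 and 4869 counts in the wt libraries, against 2244, 2910 and 2888 in those labelled KO. It was the only one of the 10 genes whose libraries overlapped, at 1030, 1216 and 1805 CPM against 1231, 1703 and 1478 CPM (exact two-sided permutation test, p = 0.7). The log2 fold change was 0.12 (SE 0.23, adjusted p = 0.687), with a 95% interval from -0.35 to 0.59. Its direction depended on the scaling, at -0.31 with library totals alone and at -0.71 where limma was run on the deposited normalized counts, which called it lower (adjusted p = 0.0106). Sod1 overlaps Scaf4 on the opposite strand, which had 4 to 13 counts in each library. Its copper chaperone Ccs was at 38.9 ± 5.20 CPM (SD, n = 3) in the wt libraries and 25.6 ± 6.77 (SD, n = 3) in the libraries labelled KO and was not called (-0.62, adjusted p = 0.0567).

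The next list holds the enzymes that remove the peroxide made by dismutases and the copper carriers Ccs and Atox1, and most of it was higher in the libraries labelled KO. Of its 9 genes, all of them tested, 6 were called higher and 1 lower (66.7% and 11.1%, beside 22.8% and 22.1% of all genes), with a median log2 fold change of 1.15. Prdx3, the peroxiredoxin of mitochondria, rose from 23.7 ± 1.64 CPM (SD, n = 3) to 70.7 ± 5.24 (SD, n = 3), and its log2 fold change was 1.57 (SE 0.23, adjusted p = 8.05e-06). Prdx5 (1.44, adjusted p = 9.44e-06), Prdx2 (1.23, adjusted p = 4.35e-05), Prdx4 of the endoplasmic reticulum (1.15, adjusted p = 1.45e-04) and the cytosolic Prdx1 (1.21, adjusted p = 2.66e-04) rose as well, as did Atox1, which carries copper to the secretory pathway (0.87, adjusted p = 0.00204). Prdx6 was not called (-0.05, adjusted p = 0.870). Catalase was the gene called lower, at 39.8 ± 6.05 CPM (SD, n = 3) in the wt libraries and 22.1 ± 5.01 (SD, n = 3) in the libraries labelled KO (Cat, -0.85, adjusted p = 0.0100), but not without wt replicate 3 (-0.71, adjusted p = 0.0592) or KO replicate 2 (-0.65, adjusted p = 0.0656). There were again 6 higher calls in the list without wt replicate 3, and with library totals alone Atox1 was not called (0.44, adjusted p = 0.0815).

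Nfe2l2 (ENSMUSG00000015839), the gene of NRF2, on chromosome 2 from 75675513 to 75704641 on the reverse strand, was read shallowly, with 29, 17 and 60 counts in the wt libraries, against 53, 45 and 50 in those labelled KO. The libraries labelled KO were close together, at 29.1, 26.3 and 25.6 CPM, and all of them above the wt libraries at 18.7, 9.10 and 22.2 CPM. The log2 fold change of 0.68 (SE 0.30, 95% interval 0.05 to 1.30) was not called (adjusted p = 0.0741). It was called only without wt replicate 3 (0.97, adjusted p = 0.0298), out of 19 alternatives.

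NRF2 binds AREs, whose core was searched as TGACNNNGC on both strands from 250 bases before to 50 bases after each start in RefSeq (GRCm38.p6). Promoters of 7 of the 10 genes were matched, and those of Nfe2l2 and Sod1 held the core. Among all 32851 promoters, 12.4% held it, and by gene 3781 of 27025. Of the 22 promoters matched among 26 listed NRF2 targets, 9 held it (40.9%). The stretches around the core are shown for the 2 members and, for comparison, for Gclm, the modifier subunit of glutathione synthesis, and the glutathione transferase Gsta3. Each is written along the strand of its gene from 5′ to 3′, with the core in capitals.
Nfe2l2, chr2:75704870-75704913, reverse strand: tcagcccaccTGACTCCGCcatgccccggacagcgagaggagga
Sod1, chr16:90220680-90220739, forward strand: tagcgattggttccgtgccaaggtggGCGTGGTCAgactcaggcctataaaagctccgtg
Gclm, chr3:122245397-122245456, forward strand: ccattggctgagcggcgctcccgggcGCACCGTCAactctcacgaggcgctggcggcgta
Gsta3, chr1:21240438-21240497, forward strand: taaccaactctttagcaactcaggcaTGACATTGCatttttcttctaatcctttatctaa
The core reads along the gene in Nfe2l2 and Gsta3 and on the opposite strand in Sod1 and Gclm. The letters were not in the windows of Nox4, Cyba, Cybb, Sod2 and Nqo1, which says nothing of sites farther away. Nfe2l2, Sod1 and Gclm (0.44, adjusted p = 0.113) were not called, and Gsta3 was called lower (-2.62, adjusted p = 0.00257), with 10, 12 and 80 counts in the wt libraries against 5, 4 and 4. Without wt replicate 3 Gsta3 was not called (-1.42, adjusted p = 0.0714). Gsta3 passed the filter on low counts only through its wt counts.

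The 2 targets of NRF2 among the members had opposite signs. Nqo1 (ENSMUSG00000003849), a quinone reductase often used as a readout of NRF2 activity, lies on chromosome 8 from 107388225 to 107403206 on the reverse strand. There were 3, 13 and 21 counts in the wt libraries, against 31, 33 and 42 in those labelled KO. At 1.93, 6.96 and 7.79 CPM against 17.0, 19.3 and 21.5 CPM, the libraries labelled KO were clearly apart, but the counts in the wt libraries were few. Nqo1 rose 3.47-fold, from 5.56 ± 3.17 CPM (SD, n = 3) to 19.3 ± 2.24 (SD, n = 3), which was 1.71 on the log2 scale (SE 0.39, adjusted p = 0.00104). It was called higher under all 18 alternatives that tested it, from 1.37 to 2.05 with each library left out in turn.

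Hmox1 (ENSMUSG00000005413), heme oxygenase 1, on chromosome 8 from 75093621 to 75100589 on the forward strand, had 103, 113 and 314 counts in the wt libraries, against 31, 69 and 116 in those labelled KO. Its levels were 66.3, 60.5 and 116 CPM against 17.0, 40.4 and 59.4 CPM, without overlap, although wt replicate 2 and KO replicate 3 were close. The log2 fold change of -1.07 (SE 0.40, 95% interval -1.96 to -0.17) just missed the threshold (adjusted p = 0.0527). Hmox1 was called lower under 11 of 19 alternatives, among them without KO replicate 3 (-1.47, adjusted p = 0.00884) and without wt replicate 2 (-1.24, adjusted p = 0.0251). It was at -0.66 (adjusted p = 0.0835) without KO replicate 1 and at -0.70 (adjusted p = 0.121) without wt replicate 3. Hmox1 is also abundant in macrophages, and in wt replicate 3 it was 1.84 times the mean of wt replicates 1 and 2. The part of such cells in this value was not tested.

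**Figure D3:**
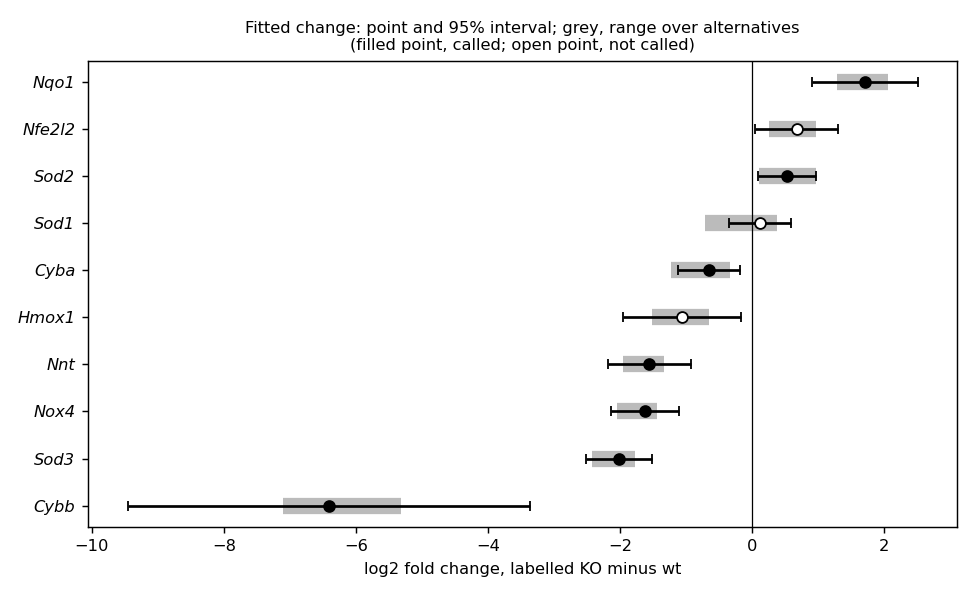
Fitted log2 fold change of each gene, labelled KO minus wt, as a point with its 95% interval, filled where called and open where not, over a grey bar from the lowest to the highest value of the 18 or 19 alternatives. The interval and grey bar of Sod1 crossed 0 (grey bar -0.71 to 0.38) and those of the other 9 genes did not, and the value of Cybb depends on its 1 to 3 counts and is no estimate of size.

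The proteins that control NRF2 were mixed. Of 12 tested, 2 were called higher and 4 lower (16.7% and 33.3%, beside 22.8% and 22.1% of all genes), also without wt replicate 3. The median log2 fold change was -0.47. Mafk, a small Maf protein that pairs with NRF2 on DNA, fell from 34.8 ± 1.84 CPM (SD, n = 3) to 8.47 ± 3.48 (SD, n = 3), and its log2 fold change was -2.02 (SE 0.31, adjusted p = 2.10e-05). Bach1, which competes with NRF2 at AREs and represses Hmox1, was called lower as well (-1.98, adjusted p = 0.00559). It had only 9, 13 and 24 counts in the wt libraries, against 6, 1 and 3 in those labelled KO. Bach1 passed the filter on low counts only through its wt counts, which favours a lower call. In a fit with no filter its adjusted p was 0.00739. Gsk3b, a kinase that marks NRF2 for degradation, fell (-1.27, adjusted p = 1.99e-04), and so did Sqstm1 (p62), which sequesters Keap1 and is itself a target of NRF2 (-1.04, adjusted p = 8.94e-04). Rbx1, a subunit of the ubiquitin ligases that act on NRF2, rose (1.07, adjusted p = 2.19e-04), and so did the related factor Nfe2l1 (0.73, adjusted p = 0.00997). The call of Nfe2l1 was lost once wt replicate 2 was left out (0.61, adjusted p = 0.0784) and with library totals alone (0.31, adjusted p = 0.261). Keap1 itself was at 84.6 ± 18.8 CPM (SD, n = 3) in the wt libraries and 65.1 ± 18.2 (SD, n = 3) in the libraries labelled KO (-0.37, adjusted p = 0.215), and its ligase scaffold Cul3 was at -0.45 (adjusted p = 0.178).

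Other targets of NRF2 moved in both directions. Of 24 tested, 4 were called higher and 10 lower (16.7% and 41.7%, beside 22.8% and 22.1% of all genes). The median log2 fold change was 0.03. Without wt replicate 3 the lower calls were 6. Txn1, the cytosolic thioredoxin, rose from 268 ± 26.2 CPM (SD, n = 3) to 819 ± 206 (SD, n = 3), and its log2 fold change was 1.61 (SE 0.22, adjusted p = 4.53e-06). Taldo1 (1.02), the microsomal transferase Mgst1 (0.82) and the ferritin light chain Ftl1 (0.63) were the other genes called higher (adjusted p = 0.00524, 0.0108 and 0.0227). With library totals alone these 3 were not called (0.59, 0.40 and 0.21, adjusted p = 0.0615, 0.201 and 0.425). Without KO replicate 2, Mgst1 (0.59, adjusted p = 0.0797) and Ftl1 (0.54, adjusted p = 0.0747) lost their calls, as did Ftl1 without wt replicate 2 (0.50, adjusted p = 0.150).

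Gstm1, a glutathione transferase, fell from 76.6 ± 16.1 CPM (SD, n = 3) to 9.31 ± 1.47 (SD, n = 3), and its log2 fold change was -3.04 (SE 0.27, adjusted p = 2.34e-08). Slc7a11, the cystine transporter that feeds glutathione synthesis, had 26, 35 and 125 counts in the wt libraries, against 3, 5 and 4 in those labelled KO. Its log2 fold change was -3.64 (adjusted p = 2.71e-06), and -2.98 without wt replicate 3. Slc7a11 passed the filter on low counts only through its wt counts, which favours a lower call. Gclc, the catalytic subunit of glutathione synthesis, was called lower (-1.61, adjusted p = 0.00431). Its counts were few, at 14, 22 and 46 in the wt libraries against 11, 4 and 8 in those labelled KO. The ferritin heavy chain Fth1 (-1.49, adjusted p = 4.09e-05) fell while the light chain rose. In the pentose phosphate pathway, which supplies cytosolic NADPH, Tkt (-1.59, adjusted p = 4.92e-06), G6pdx (-1.06, adjusted p = 0.00428) and Pgd (-0.62, adjusted p = 0.0245) were called lower and Taldo1 higher. Without wt replicate 3, G6pdx (-0.62, adjusted p = 0.0662) and Pgd (-0.36, adjusted p = 0.211) were not called, nor was the sulfiredoxin Srxn1 (-0.33, adjusted p = 0.296 against -0.72 and adjusted p = 0.0232 with all libraries). Pgd and Srxn1 were not called without KO replicate 1 (adjusted p = 0.0687 and 0.106) or KO replicate 3 (adjusted p = 0.120 and 0.101) either. Thioredoxin reductase (Txnrd1, -0.63, adjusted p = 0.0868) and glutathione reductase (Gsr, 0.73, adjusted p = 0.114) were not called.

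**Figure D4:**
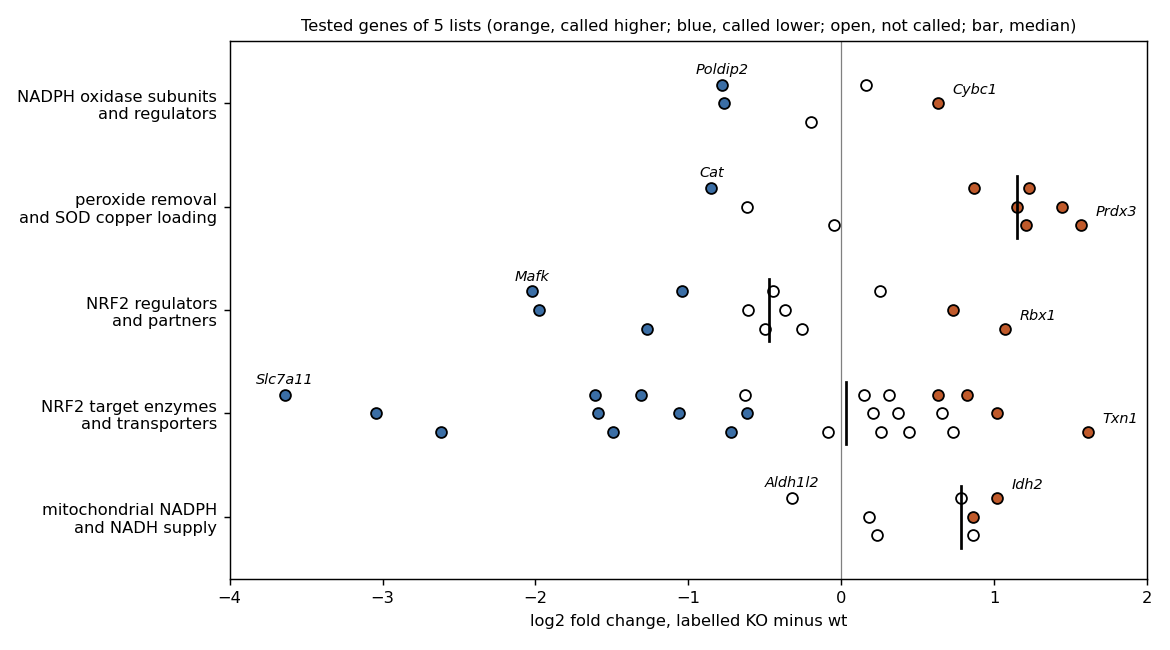
Log2 fold change, labelled KO minus wt, of the tested genes of 5 pathway lists, orange where called higher, blue where called lower and open where not called, with a bar at the median of each list other than the oxidase list, which is not shown whole, and the genes of lowest and highest value named. The peroxide list lay mostly to the right (median 1.15) with Cat at -0.85, while the targets of NRF2 spread from -3.64 (Slc7a11) to 1.61 (Txn1) around a median of 0.03.

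Nnt lies on chromosome 13 on the reverse strand and is listed as ENSMUSG00000025453 (119335448 to 119408997) and ENSMUSG00000116207 (119335528 to 119408952). The rows overlap on the same strand and held 316 and 311 reads over all libraries, so they were read as 1 gene. The first row had 47, 89 and 107 counts in the wt libraries, against 36, 18 and 19 in those labelled KO. At 30.3, 47.6 and 39.7 CPM against 19.8, 10.5 and 9.72 CPM, the genotypes did not overlap, with KO replicate 1 nearest to the wt libraries. The level fell 2.94-fold, from 39.2 ± 8.70 CPM (SD, n = 3) to 13.3 ± 5.57 (SD, n = 3), which was -1.56 on the log2 scale (SE 0.30, adjusted p = 2.38e-04). The second row gave -1.58 (adjusted p = 2.07e-04). Both rows were called lower under all 19 alternatives, the first at -1.90 to -1.34 over the fits without 1 library each. The substrain C57BL/6J is known to carry an internal deletion in Nnt that C57BL/6N lacks. Reads from the transcript end do not show that deletion, and which allele each library carried was not tested.

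Of the 7 other mitochondrial enzymes that supply NADPH or NADH tested, 2 were called higher and none lower, with a median log2 fold change of 0.78. The higher calls were 28.6% of those tested, near the 22.8% of all genes. Idh2, the isocitrate dehydrogenase that makes mitochondrial NADPH, rose from 22.6 ± 4.05 CPM (SD, n = 3) to 46.1 ± 12.5 (SD, n = 3), and its log2 fold change was 1.02 (adjusted p = 0.00301). Mthfd2, of the mitochondrial folate cycle, rose by 0.86 (adjusted p = 0.00262). With library totals alone, neither Idh2 (0.61, adjusted p = 0.0676) nor Mthfd2 (0.44, adjusted p = 0.102) was called. Me2 (0.86, adjusted p = 0.0658) and Mthfd2l (0.78, adjusted p = 0.0728) were not called, and Glud1 (0.23), Mdh2 (0.18) and Aldh1l2 (-0.32) were not called either.

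The 10 genes also differed in how wt replicate 3 compared with the other wt libraries, in which the median of all tested genes was 1. Cybb (4.24 times the mean of wt replicates 1 and 2), Hmox1 (1.84), Nqo1 (1.75), Sod1 (1.61), Nfe2l2 (1.60) and Cyba (1.51) were higher there, whereas Nnt (1.02), Sod2 (0.927), Nox4 (0.897) and Sod3 (0.880) were close to 1. The genes most like 4 of the members in log2 CPM were found by Pearson's r over the 6 libraries, which share depth and genotype, so these values are descriptions. Among the nearest to Nox4 were Ece1 (r = 0.999) and Mpp5 (0.998), both called lower. For Cybb the nearest were Slc7a11 and Napa (0.997 each) and Frk (0.996). For Hmox1 they were Utp15 (0.990), Lypla2 (0.985) and Acot9 (0.984), and among those for Nnt were Tecpr1 and Las1l (0.999 each). Slc7a11, Frk and Tecpr1 were called lower, whereas Napa, Utp15, Lypla2, Acot9 and Las1l were not called. Pearson's r takes no account of the size of a change, and Napa was at only -0.32 (adjusted p = 0.196).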

How the data were processed

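The authors trimmed Quant-Seq reads with Trim Galore, aligned them to GRCm38 with HISAT2 and Bowtie2, used metaseqR2 to count them on UTR regions, and deposited raw counts per gene. Their normalized counts, used here as a score, were also deposited. The authors made them with EDASeq, and all 6 columns hold the same sorted values. Symbols and coordinates came from GENCODE M21 (55104 of 55364 genes matched). Raw counts were tested with edgeR 4.0.16 (R 4.3.3), by a robust quasi-likelihood fit after filterByExpr and TMM. The study combined several tests, a combination not used here. In simulated libraries of 9894 genes with 200 changed, the test recovered 94% of 4-fold and 37% of 2-fold changes, with 5.07% of calls false. The simulation took each gene's spread from a common trend and changed far fewer genes than the 44.9% called here. Its rates therefore do not carry over to these data. A library's 0 allows up to 3 counts, and the folds of Cybb and Itgax were set against 3 counts per library. These folds cover counting error at most, and not the spread between samples. Alternatives used DESeq2 1.42.0, limma 3.58.1 and voom, other scalings and filters, loess corrections for GC content or length (span 0.5, prior count 2), a replicate block and each library left out. Tables and plots used Python 3.11.15, pandas 2.3.3, numpy 2.4.6, scipy 1.17.1 and matplotlib 3.10.9. The members and lists were chosen with earlier results of these data known. Named were all members, the 4 genes of smallest adjusted p in each pathway list, tested leukocyte markers, Sh3pxd2a, sex-linked genes and, for 4 members, the 3 genes of most similar log2 CPM. Other list genes, such as Ncf1, Ncf4, Rac2, Ccs, Prdx1, Prdx6, Cat, Bach1, Keap1 and G6pdx, were chosen after their values were seen. A few genes that this rule names are not reported here, and 1 of them was also left out of the oxidase list.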

Additional observations from a re-analysis of the deposited data

How the results depend on the processing

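Of the 207 values that alternatives gave for the member genes, 171 kept their direction and side of the threshold, 21 lost the call, 12 gained it and 3 changed direction. The last were Sod1 with the authors' normalized counts (-0.71), with library totals alone (-0.31) and without wt replicate 1 (-0.04, in a range up to 0.38 over the libraries left out). Among other named genes, Sh3pxd2a turned to -0.13 and Rac1 to -0.26 with library totals alone (Rac1 to -0.41 with the authors' normalized counts), Eif2s3y to 0.11 without KO replicate 2 and 0.07 without wt replicate 3 (from -0.80 over the libraries left out), and Lypla2 to 0.16 with the GC correction, with or without the replicate block. The cause was not tested. With single libraries left out there were 5 to 8 called rows of the members and 3853 to 4595 called genes. Same-numbered libraries deviated together with correlations of -0.00101, -0.0637 and 0.082, and libraries of unlike number with -0.102 to 0.0973. These values show no sign of pairing, but with 3 libraries a genotype they cannot exclude it. With the replicate number as a block, 8 rows of the members (1 higher, 7 lower) and 4668 genes were called, and with the block and GC correction 7 rows and 4587 genes. The block alone gave Hmox1 a call (-1.12, adjusted p = 5.85e-04) and took that of Sod2 (0.51, adjusted p = 0.0523). It lowered the adjusted p of Cybb to 1.4e-10. Depth limits Nqo1 and Nfe2l2 in wt LFs and Cybb in the libraries labelled KO. With 3 libraries a genotype, 2-fold changes were often missed in simulation, but it changed far fewer genes than were called here. How often such changes were missed in these data was not tested.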

Other observations

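Of 8 endothelial markers listed, 4 were tested. Of these, 3 were called lower in the libraries labelled KO (75.0%, beside 22.1% of all genes). Pecam1 and Kdr, among those called, passed the filter on low counts only through their wt counts. This favours lower calls, so the share adds no support. Neither the part of endothelial cells nor that of any other cell type in the member values was tested. Kdr had 17, 17 and 28 counts in the wt libraries, against 0, 0 and 2 in those labelled KO. Of 7 tested smooth muscle and pericyte markers, 2 were called higher and 4 lower (28.6% and 57.1%, beside 22.8% and 22.1% of all genes). Of 2 epithelial markers, 1 was called each way, and the mesothelial marker tested, Upk3b, was lower (-3.28, adjusted p = 1.30e-04). Among the lower calls of these lists, Cspg4, Cldn4 and Upk3b also passed the filter only through their wt counts. Among sex-linked genes, Xist had 0 counts in all 6 libraries and Eif2s3y was not called (-0.23, adjusted p = 0.688), while Ddx3y had 146, 159 and 210 counts in the wt libraries, against 25, 19 and 21 in those labelled KO (-2.84, adjusted p = 1.45e-08).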
